A study of Mus musculus with 12 samples.

Results

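The 8 genes described here are Ppara, Pdk4, Cpt1a, Cpt2, Acadvl, Acadl, Acadm and Hadha. They encode a regulator, transport steps and enzymes of mitochondrial fatty acid oxidation and, in Pdk4, a kinase of pyruvate dehydrogenase. They were chosen by symbol from a table of 55421 mouse genes from bulk RNA-seq of jejunal epithelial cells. All 8 were found, each under 1 identifier, and all 8 reached 1 TPM (a transcript abundance divided by transcript length and scaled to a fixed library total) in at least 3 libraries, the condition for being among the 14510 genes tested. The libraries fell into 4 groups of 3: Fzd5KO at day 3, Ctrl at day 3, Fzd5KO at day 1 and Ctrl at day 1. Fzd5KO samples are, per their label, a knockout of Fzd5, which encodes a Frizzled receptor that takes up Wnt signals at the cell surface. Ctrl samples carry no genotype beyond that word. The strain, the age, the part of Fzd5 deleted, the driver of any recombinase, and the starting point of the day count are not given in the labels used. Nothing in the labels ties the replicates to separate mice. The p-values thus weigh differences against the spread among libraries, and that spread may be only technical.

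Fatty acids enter the cell, are joined to coenzyme A and cross the mitochondrial membranes as carnitine esters, and inside the matrix each turn of beta-oxidation shortens the chain and yields acetyl-CoA. PPARalpha, the nuclear receptor encoded by Ppara, binds fatty acids and, as a dimer with a retinoid X receptor, switches on genes for these steps in fasting liver and in the villus epithelium of the small intestine. Acetyl-CoA can feed the tricarboxylic acid cycle or, in some tissues, the making of ketone bodies. The gene set was put forward as fatty acid oxidation and ketogenesis, but none of the 8 genes encodes an enzyme of ketone body synthesis. The set is therefore called the fatty acid oxidation genes below, with Pdk4, which acts on pyruvate dehydrogenase, kept in it.

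Library totals were the same by construction of TPM, so depth was unknown and no interval for counting error could be given. The libraries listed 21506 to 24467 genes above 0, and Ctrl day 1 replicate 1 stood apart from the other 11 by at least 1854 genes. The targeted gene Fzd5 was listed at 37.8 to 39.7 TPM in Fzd5KO against 60.5 to 68.2 TPM in Ctrl at day 3, and at 31.9 to 33.1 TPM in Fzd5KO against 43.5 to 49.4 TPM in Ctrl at day 1. Whether these reads include the deleted part is not given. The 10 epithelial markers summed to 6366 TPM or more in every library. Of 7 adipocyte markers, 6 (Adipoq, Plin1, Lep, Cfd, Retn and Fabp4) lay under 1 TPM in all 12 libraries, as did 4 of 6 markers of striated muscle (Ckm, Myh7, Myh6 and Mb). The others were Lipe, at 58.7 to 61.3 TPM in Fzd5KO and 35.7 to 38.4 TPM in Ctrl at day 3, Acta1, at 19.5 to 23.4 TPM in Fzd5KO and 5.98 to 9.35 TPM in Ctrl at day 3, and Tnnt2, at most 2.99 TPM. Lipe and Acta1 were called higher at day 3, and Acta1 was called lower at day 1. Changes below are Fzd5KO minus Ctrl on the log2(TPM + 1) scale ± SE, a scale that understates the change of low genes, and are called under an adjusted p of 0.05 (limma, Benjamini-Hochberg over all 14510 genes).

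The levels of the 8 genes kept a stable outline in every group. Hadha, the alpha subunit of the trifunctional protein that carries out the later steps of long-chain oxidation, was the highest, and Pdk4, a kinase that inhibits pyruvate dehydrogenase, was the lowest, with Ppara next to it. In the means of 3 libraries, Hadha stood at 198 TPM in Fzd5KO and 150 TPM in Ctrl at day 3, and at 126 TPM in Fzd5KO and 139 TPM in Ctrl at day 1. Acadl, the long-chain acyl-CoA dehydrogenase, was the gene whose place changed most: rank 2 of 8 in Fzd5KO and rank 6 in Ctrl at day 3, rank 3 in Fzd5KO and rank 6 in Ctrl at day 1. Among neighbours in this order, the ranges of libraries overlapped between Acadm and Cpt1a in Fzd5KO and in Ctrl at day 3. They overlapped between Acadvl and Acadl in Fzd5KO at day 1, and in Ctrl at day 1 between Acadvl and Acadm, between Cpt1a and Cpt2, and between Cpt2 and Acadl. The other neighbours were separate.

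**Figure D1:**
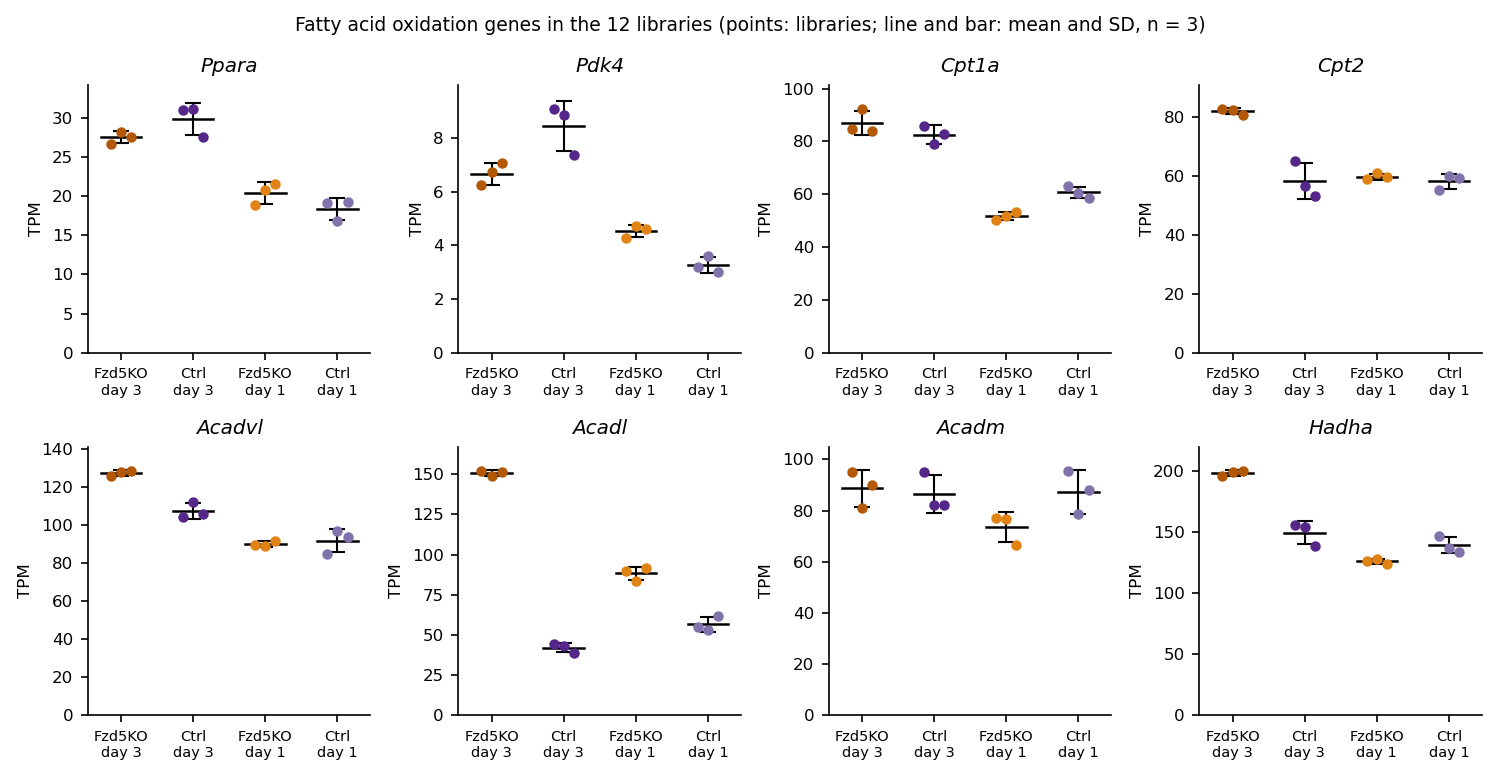
TPM of the 8 fatty acid oxidation genes (each panel has its own axis from 0) in Fzd5KO and Ctrl at day 3 and then at day 1. Points are libraries and black lines and bars are means and SD of 3 libraries. Acadl in Fzd5KO at day 3, at 149 to 152 TPM, lies far above the 3 other groups, whose highest library is at 91.5 TPM.

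At day 3, 4 of the 8 genes were higher in Fzd5KO than in Ctrl, 1 was lower and 3 were not called. Acadl, Cpt2, Hadha and Acadvl were the higher ones and Pdk4 the lower one. Over all tested genes 24.3% were called higher and 38.5% lower at this day, and 62.8% were called in either direction. The median change was 0.16 over the 8 genes, against −0.14 over all tested genes. In each of the 5 called genes the 3 Fzd5KO libraries did not overlap the 3 Ctrl libraries, as also held for 25.7% of tested genes in the higher and 40.8% in the lower direction.

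At day 1, 2 of the 8 genes, Acadl and Pdk4, were higher in Fzd5KO, 2, Cpt1a and Hadha, were lower, and 4 were not called. Over all tested genes 2.13% were called higher, 22.8% lower and 25% in either direction. The median change was 0.0063 over the 8 genes, against −0.14 over all tested genes. Without Ctrl day 1 replicate 1, 2 were called higher and 1 lower. Under the other scalings 0 of the 8 were called lower at day 1, while 4 were called higher by median-of-ratios scaling, 3 by TPM rescaled after leaving out mitochondrial, predicted, small RNA and the 20 most abundant genes, and 3 by quantile normalization. Counted by libraries that did not overlap, 2 genes were higher and 3 lower, the added one being Acadm, against 4.52% and 38.9% of tested genes. The 2 days rest on different libraries, and the difference between the days' effects was tested gene by gene: it was called in 6 of the 8 genes (5 with a larger value at day 3 and 1, Pdk4, with a smaller one), against 25.3% of tested genes called larger and 19.1% called smaller, 44.3% in all. With quantile normalization and with the rescaled TPM 3 of the 8 were called larger and 2 smaller at day 3. Over all tested genes the calls were 3665 larger and 2769 smaller, against 3132 and 3225 with quantile normalization and 2466 and 4571 with the rescaled TPM.

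As the mean of both days, 4 of the 8 genes were higher in Fzd5KO than in Ctrl and 0 lower, against 17.6% of tested genes called higher, 41.3% lower and 58.9% in either direction. These were Acadl (1.23 ± 0.044, adjusted p = 3.08e-09), Cpt2 (0.26 ± 0.044, adjusted p = 0.000352), Hadha (0.13 ± 0.034, adjusted p = 0.00572) and Acadvl (0.11 ± 0.034, adjusted p = 0.0149, lost with quantile normalization at 0.078). For Hadha, whose days differ in direction, this mean describes neither day.

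Part of these all-gene numbers depends on scaling. Of all tested genes 3529 were called higher and 5584 lower at day 3, and 309 higher and 3313 lower at day 1. With median-of-ratios scaling, which moved the median of all genes by 0.12 at day 3 and by 0.14 at day 1, the split was 4567 higher and 4248 lower at day 3 and 1277 higher and 911 lower at day 1. With quantile normalization it was 3984 higher and 4402 lower at day 3 and 851 higher and 920 lower at day 1. With the rescaled TPM it was 2778 higher and 5992 lower at day 3 and 769 higher and 1267 lower at day 1. Changes near the all-gene median of −0.14 are therefore within the range that scaling alone moves, and calls of the genes named below that were lost to a scaling are given with the gene. The exceptions are Slc16a1, Slc16a7 and the genes near Acadl on chromosome 1, whose calls under the other scalings are not given. The rescaled TPM moved the day 3 median the other way, by −0.098. Single genes could move further than the median. Quantile normalization took Acadvl at day 3 from 0.25 to 0.053 and Pdk4 from −0.29 to −0.059.

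**Figure D2:**
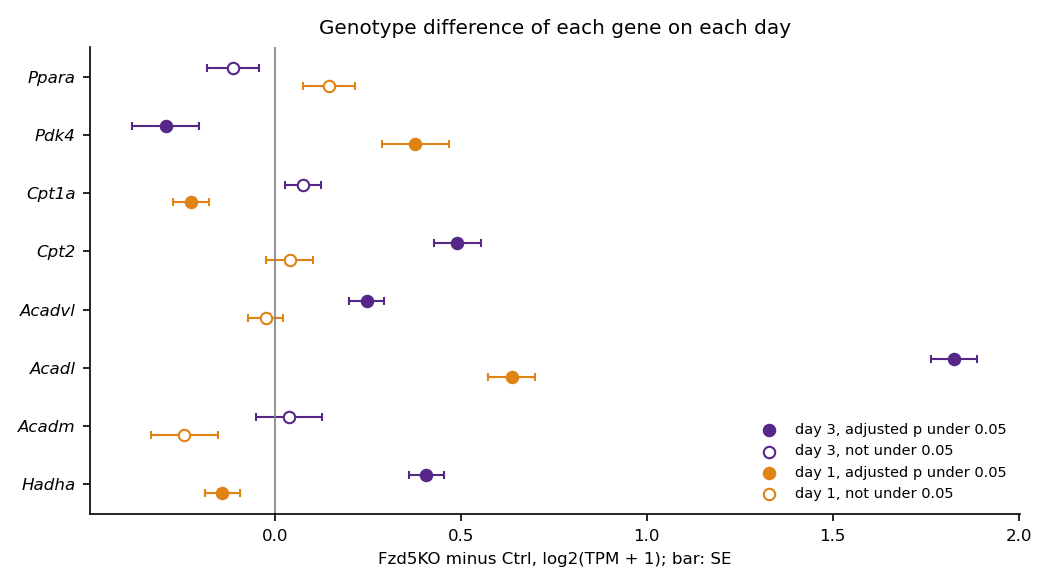
Fzd5KO minus Ctrl on the log2(TPM + 1) scale (x axis) for each of the 8 genes (y axis), at day 3 above day 1. Bars are SE, filled points have an adjusted p under 0.05. Acadl is at 1.83 at day 3 and 0.64 at day 1, and Pdk4 and Hadha have called changes of opposite direction on the 2 days.

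The regulator showed no called difference between the genotypes. Ppara stood at 26.69, 28.20 and 27.57 TPM in Fzd5KO at day 3, against 30.97, 31.13 and 27.54 TPM in Ctrl. The day 1 libraries had 18.87, 20.80 and 21.52 TPM in Fzd5KO, against 19.09, 16.76 and 19.26 TPM in Ctrl. The genotypes overlapped on both days, while every day 3 library of either genotype lay above every day 1 library. The change was −0.11 ± 0.070 (adjusted p = 0.175) at day 3 and 0.14 ± 0.070 (adjusted p = 0.153) at day 1. The day 1 change was called under the 3 other scalings (0.25 to 0.30), and the day 3 change under the rescaled TPM (−0.24, adjusted p = 0.00972). The difference between the days, −0.26 ± 0.099, had an adjusted p of 0.0532 and was called under 8 of 22 alternatives.

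Pdk4, a PPARalpha target whose kinase holds pyruvate back from oxidation when fatty acids are burned, changed in opposite directions on the 2 days. It stood at 6.23, 6.73 and 7.05 TPM in Fzd5KO at day 3, against 9.08, 8.84 and 7.37 TPM in Ctrl. In the day 1 libraries it was at 4.28, 4.73 and 4.60 TPM in Fzd5KO, against 3.20, 3.60 and 3.00 TPM in Ctrl. The genotypes did not overlap on either day: all Fzd5KO libraries were lower at day 3 and higher at day 1. The change was −0.29 ± 0.090 (adjusted p = 0.0134) at day 3 and 0.38 ± 0.090 (adjusted p = 0.0121) at day 1, and the difference between the days was −0.67 ± 0.13 (adjusted p = 0.00118). The day 3 call was lost with quantile normalization (−0.059, adjusted p = 0.521) and median-of-ratios scaling (−0.17, adjusted p = 0.0775), and without Fzd5KO day 3 replicate 1 (adjusted p = 0.0520), Ctrl day 3 replicate 1 (0.0567) or Ctrl day 3 replicate 2 (0.0511). The day 1 call and the difference between the days held under every alternative run.

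Of the 3 other pyruvate dehydrogenase kinases, Pdk2 moved the other way from Pdk4 at day 3. It stood at 33.9 TPM in Fzd5KO and 17.0 TPM in Ctrl at day 3, a change of 0.96 ± 0.074 (adjusted p = 5.62e-07), and at 20.7 TPM in Fzd5KO and 24.3 TPM in Ctrl at day 1. Pdk1 (20.3 TPM in Fzd5KO, 20.7 TPM in Ctrl) and Pdk3 (15.1 TPM in both genotypes) were not called at day 3, with changes of −0.034 ± 0.12 (adjusted p = 0.81) and −0.0063 ± 0.099 (adjusted p = 0.961). In the list of 13 genes of pyruvate dehydrogenase and its control, 2 were higher and 6 lower at day 3 (median −0.14), among them Pdha1, the alpha subunit of the enzyme, at −0.30 ± 0.035 (adjusted p = 1.82e-05). At day 1, 0 were higher and 6 lower (median −0.14). By median-of-ratios scaling the day 3 split of this list was 3 higher and 3 lower.

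Genes of the circadian clock, which drive a daily rhythm of Ppara in liver, set Ctrl at day 3 apart from the 3 other groups. Dbp, an output factor of the clock, stood at 20.7 to 24.7 TPM in Fzd5KO and 2.51 to 3.44 TPM in Ctrl at day 3, and at 28.2 to 29.8 TPM in Fzd5KO and 34.7 to 35.8 TPM in Ctrl at day 1. Nr1d1, the repressor REV-ERBalpha, stood at 17.2 to 18.5 TPM in Fzd5KO and 0.47 to 0.88 TPM in Ctrl at day 3, and at 12.1 to 12.6 TPM in Fzd5KO and 20.8 to 21.7 TPM in Ctrl at day 1. Arntl, the activator BMAL1, ran the other way, at 6.26 to 7.30 TPM in Fzd5KO and 24.1 to 25.7 TPM in Ctrl at day 3, and at 6.58 to 7.85 TPM over the 6 day 1 libraries. Over the clock list of 17 tested genes, 7 were higher and 7 lower at day 3, and 1 higher and 4 lower at day 1. The hour of tissue collection is not given, and the part of the clock genes in the Ppara and Pdk4 values was not tested. Nor was it tested for any other gene or list compared with Ctrl at day 3.

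**Figure D3:**
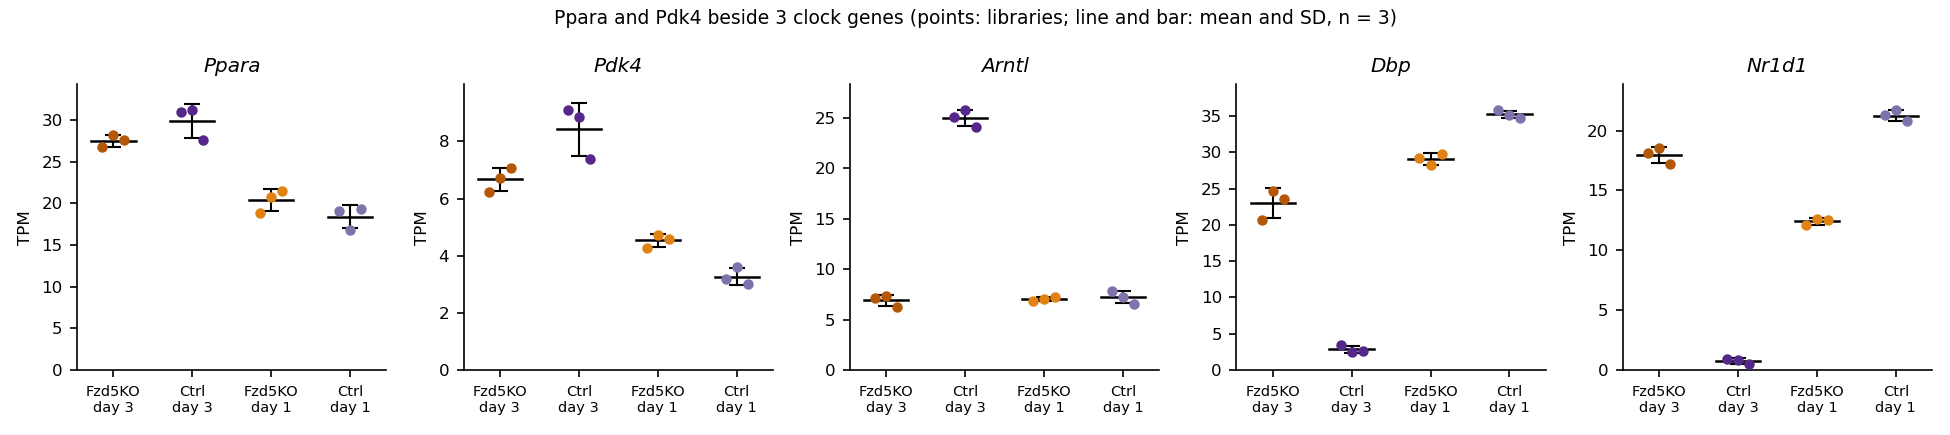
TPM (y axes from 0) of Ppara and Pdk4 beside the clock genes Arntl, Dbp and Nr1d1 in Fzd5KO and Ctrl at day 3 and then at day 1. Points are libraries, lines and bars means and SD of 3. Ctrl at day 3 is the group with the highest Arntl (24.1 to 25.7 TPM) and the lowest Dbp (2.51 to 3.44 TPM).

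The carnitine shuttle genes Cpt1a and Cpt2 differed in which day showed a change. Cpt1a, the liver form of carnitine palmitoyltransferase I and the rate-limiting entry step, stood at 84.78, 92.29 and 84.01 TPM in Fzd5KO at day 3, against 85.93, 79.02 and 82.81 TPM in Ctrl. Day 1 levels were 50.11, 51.83 and 53.22 TPM in Fzd5KO, against 63.07, 60.28 and 58.74 TPM in Ctrl. The genotypes overlapped at day 3 and were separate, with Fzd5KO lower, at day 1. The change was 0.074 ± 0.048 (adjusted p = 0.202, called with median-of-ratios scaling at 0.22) at day 3 and −0.23 ± 0.048 (adjusted p = 0.0071) at day 1. The day 1 call was lost under the 3 other scalings (−0.12 to −0.066, adjusted p 0.0935 to 0.411). The difference between the days, 0.30 ± 0.068 (adjusted p = 0.00397), was lost with quantile normalization (0.059, adjusted p = 0.528) and with the rescaled TPM (0.075, adjusted p = 0.342).

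Cpt2, the inner-membrane enzyme that returns the acyl group to coenzyme A, stood at 82.63, 82.26 and 80.68 TPM in Fzd5KO at day 3, against 64.91, 56.37 and 53.24 TPM in Ctrl. At day 1 it stood at 58.76, 60.76 and 59.48 TPM in Fzd5KO, against 55.14, 60.06 and 59.09 TPM in Ctrl. All Fzd5KO libraries were higher at day 3, and the genotypes overlapped at day 1. The change was 0.49 ± 0.062 (adjusted p = 3.44e-05) at day 3 and 0.039 ± 0.062 (adjusted p = 0.677, called with median-of-ratios scaling at 0.20) at day 1, and the difference between the days was 0.45 ± 0.088 (adjusted p = 0.00147). Of the 9 other tested carnitine genes, 8 were higher at day 3 and 0 lower (median 0.63), and 1 was higher and 1 lower at day 1 (median −0.10). Among them were Slc25a20, the translocase that works between the products of Cpt1a and Cpt2, at 61.2 TPM in Fzd5KO and 45.5 TPM in Ctrl at day 3 (0.42 ± 0.047, adjusted p = 1.2e-05), and the carnitine importer Slc22a5, at 75.1 TPM in Fzd5KO and 38.6 TPM in Ctrl (0.94 ± 0.070, adjusted p = 4.23e-07). Bbox1, the last enzyme of carnitine synthesis, stood at 7.21 TPM in Fzd5KO and 1.68 TPM in Ctrl at day 3 (1.62 ± 0.086, adjusted p = 2.45e-08).

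The 3 acyl-CoA dehydrogenases, which start each turn of the cycle on chains of different length, did not move alike. Acadl, for long chains, stood at 152.01, 148.97 and 151.67 TPM in Fzd5KO at day 3, against 44.00, 42.87 and 38.75 TPM in Ctrl. Its day 1 values were 89.92, 83.65 and 91.47 TPM in Fzd5KO, against 54.89, 52.97 and 61.81 TPM in Ctrl. All Fzd5KO libraries lay above all Ctrl libraries on both days. The ratio of means was 3.60 at day 3 and 1.56 at day 1, and the change was 1.83 ± 0.063 (adjusted p = 7.88e-10) at day 3 and 0.64 ± 0.063 (adjusted p = 6.93e-05) at day 1. The difference between the days was 1.19 ± 0.089 (adjusted p = 8.86e-07). Each of these calls held under every alternative run.

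Acadvl, for very long chains, stood at 125.47, 127.85 and 128.14 TPM in Fzd5KO at day 3, against 103.96, 111.87 and 105.45 TPM in Ctrl. The day 1 libraries had 89.19, 88.84 and 91.54 TPM in Fzd5KO, against 84.67, 96.51 and 93.74 TPM in Ctrl. Fzd5KO was higher in every library at day 3 and within the Ctrl range at day 1. The change was 0.25 ± 0.047 (adjusted p = 0.000819) at day 3 and −0.026 ± 0.047 (adjusted p = 0.715) at day 1. With quantile normalization the day 3 call was lost (0.053, adjusted p = 0.39), and the difference between the days, 0.27 ± 0.067 (adjusted p = 0.00644), turned to −0.0496. That difference was also lost with the rescaled TPM (0.044, adjusted p = 0.581). Acadvl shares 1151 exonic bases with Dvl2 on the opposite strand, and the strand setting of the counting is unknown. Dvl2 was at 4.31 TPM in Fzd5KO and 7.87 TPM in Ctrl at day 3, and its part in the Acadvl values was not tested.

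Acadm, for medium chains, stood at 95.01, 80.98 and 89.95 TPM in Fzd5KO at day 3, against 94.92, 82.20 and 82.06 TPM in Ctrl. In the day 1 libraries it was at 77.08, 76.73 and 66.70 TPM in Fzd5KO, against 95.40, 78.45 and 88.11 TPM in Ctrl. The genotypes overlapped at day 3, and at day 1 every Fzd5KO library was lower. The change was 0.037 ± 0.090 (adjusted p = 0.737) at day 3 and −0.24 ± 0.090 (adjusted p = 0.0681) at day 1, so neither was called. Without Ctrl day 1 replicate 2, its lowest Ctrl library at day 1, the day 1 change was called (−0.32, adjusted p = 0.0416). Its SE was the largest of the 8 genes together with that of Pdk4.

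Hadha stood at 195.64, 199.44 and 200.03 TPM in Fzd5KO at day 3, against 156.09, 154.34 and 138.48 TPM in Ctrl. Day 1 levels were 125.99, 127.80 and 123.99 TPM in Fzd5KO, against 146.47, 137.04 and 134.01 TPM in Ctrl. The genotypes were separate on both days, with Fzd5KO higher at day 3 and lower at day 1. The change was 0.41 ± 0.048 (adjusted p = 1.82e-05) at day 3 and −0.14 ± 0.048 (adjusted p = 0.0492) at day 1, the second equal to the median of all tested genes. The day 1 call was lost under 16 of 23 alternatives, among them leaving out Ctrl day 1 replicate 1, the library with the most genes above 0 (−0.11, adjusted p = 0.153), and median-of-ratios scaling gave 0.020. The difference between the days, 0.55 ± 0.067 (adjusted p = 4.95e-05), held under every alternative run. Hadhb, the beta subunit of the same protein, stood at 120 TPM in Fzd5KO and 97.5 TPM in Ctrl at day 3 (0.30 ± 0.058, adjusted p = 0.000922, lost with quantile normalization at 0.11), and at 95.0 TPM in Fzd5KO and 102 TPM in Ctrl at day 1.

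The pathway lists are to be read against the 24.3% of tested genes called higher and 38.5% called lower at day 3, and 2.13% and 22.8% at day 1. Their day 1 medians ran from −0.17 to −0.066, beside −0.14 over all tested genes, with the PPAR targets apart at 0.052, and many of their day 1 calls of lower genes were lost to scaling. Under the 3 other scalings, the genes lower at day 1 numbered 0 to 1 in the tricarboxylic acid cycle in place of 9, 0 to 2 among PPAR receptors and coregulators in place of 10, 1 under each in peroxisomal beta-oxidation in place of 5, and 1 to 2 in pyruvate dehydrogenase control in place of 6.

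Of the 21 other tested genes in the mitochondrial beta-oxidation list, 7 were higher and 7 lower at day 3 (median −0.033). In the day 1 libraries 0 were higher and 3 lower (median −0.10). By median-of-ratios scaling the day 3 split was 11 higher and 7 lower, by the rescaled TPM 2 higher and 9 lower, and by quantile normalization 1 higher and 6 lower. Acad11, an acyl-CoA dehydrogenase, was higher at day 3 (0.47 ± 0.038, adjusted p = 7.89e-07), as was Etfb, a subunit of the electron carrier these dehydrogenases reduce (0.19 ± 0.031, adjusted p = 0.00025), though the Etfb call was lost with quantile normalization (0.043, adjusted p = 0.293) and with the rescaled TPM (0.071, adjusted p = 0.0834). Hsd17b10, a dehydrogenase of short chains, was lower at −0.80 ± 0.072 (adjusted p = 2.15e-06), and Acaa2, the mitochondrial thiolase, at −0.35 ± 0.061 (adjusted p = 0.000438). This list also holds enzymes of branched-chain amino acid and propionyl-CoA breakdown, so its counts do not describe fatty acid oxidation alone. Examples of such enzymes, not a full list, had day 3 changes of −0.93 (Pcca), −0.69 (Mcee), −0.48 (Acad8), −0.090 (Acadsb) and 0.14 (Pccb). Peroxisomal beta-oxidation, which shortens very long chains before they reach mitochondria, had 15 of 18 tested genes higher and 1 lower at day 3 (median 0.42), and 0 higher and 5 lower at day 1 (median −0.12). Ehhadh, an enzyme of this pathway, stood at 51.0 TPM in Fzd5KO and 33.3 TPM in Ctrl at day 3 (0.60 ± 0.050, adjusted p = 1.07e-06). Cat, the catalase that removes the hydrogen peroxide of this pathway, was the gene called lower, at −0.33 ± 0.039 (adjusted p = 2.09e-05).

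Ketone body genes had 2 of 9 tested members higher and 5 lower at day 3 (median −0.26), and 1 higher and 1 lower at day 1 (median −0.066). Bdh1, which interconverts the ketone bodies, stood at 63.3 TPM in Fzd5KO and 86.1 TPM in Ctrl at day 3 (−0.45 ± 0.11, adjusted p = 0.00413). Slc16a6, a monocarboxylate carrier known in zebrafish liver for the export of ketone bodies, was higher on both days, at 1.05 ± 0.063 at day 3 (adjusted p = 6.98e-08) and 0.44 ± 0.063 at day 1 (adjusted p = 0.000809). The other Slc16 genes of this list were lower at day 3 and not called at day 1. At day 3 Slc16a1 changed by −0.26 ± 0.047 (adjusted p = 0.000494). Slc16a7, at 0.40 TPM in Fzd5KO and 1.31 TPM in Ctrl, changed by −0.73 ± 0.20 (adjusted p = 0.00868).

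Upstream of oxidation, 6 of 14 genes of fatty acid uptake and activation were higher and 5 lower at day 3 (median 0.12), and 1 was higher and 5 lower at day 1 (median −0.084). With the rescaled TPM, 3 of 12 tested were higher and 6 lower at day 3 (median −0.11). Acsl5, an acyl-CoA synthetase of enterocytes, stood at 2674 TPM in Fzd5KO and 1083 TPM in Ctrl at day 3 (1.30 ± 0.030, adjusted p = 5.38e-11). Fabp1, a cytosolic fatty acid binding protein, stood at 5018 TPM in Fzd5KO and 2309 TPM in Ctrl at day 3 (1.12 ± 0.029, adjusted p = 1.05e-10), and Slc27a1, a fatty acid transporter, was lower at 3.93 TPM in Fzd5KO and 8.79 TPM in Ctrl (−0.99 ± 0.092, adjusted p = 2.67e-06). Of 9 tested genes that make, remove or sense malonyl-CoA, the inhibitor of the Cpt1a product, 3 were higher and 3 lower at day 3 (median −0.032), and 0 higher and 2 lower at day 1 (median −0.11). By the rescaled TPM the day 3 split was 1 higher and 5 lower. Acaca, the cytosolic acetyl-CoA carboxylase, was lower at day 3 (−0.41 ± 0.10, adjusted p = 0.00481) and Prkaa2, a catalytic subunit of AMPK, higher (0.49 ± 0.059, adjusted p = 2.5e-05). The tricarboxylic acid cycle had 9 of 17 genes higher and 5 lower at day 3 (median 0.19), and 0 higher and 9 lower at day 1 (median −0.17). With quantile normalization 6 were higher and 8 lower at day 3. Its first enzyme, citrate synthase (Cs), stood at 394 TPM in Fzd5KO and 215 TPM in Ctrl at day 3 (0.87 ± 0.034, adjusted p = 1.93e-09), and mitochondrial isocitrate dehydrogenase Idh2 at 29.5 TPM in Fzd5KO and 57.2 TPM in Ctrl (−0.93 ± 0.071, adjusted p = 4.89e-07).

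Of 22 tested PPAR receptors, partners and coregulators, 10 were higher and 4 lower at day 3 (median 0.079), and 2 higher and 10 lower at day 1 (median −0.17). The day 3 split was 14 higher and 3 lower by median-of-ratios scaling, and 7 higher and 6 lower by the rescaled TPM (median −0.040). Ppargc1a, a coactivator of PPARalpha, stood at 38.8 TPM in Fzd5KO and 25.5 TPM in Ctrl at day 3 (0.59 ± 0.071, adjusted p = 2.45e-05), while its relative Ppargc1b stood at 12.03 TPM in Fzd5KO and 23.2 TPM in Ctrl (−0.90 ± 0.11, adjusted p = 2.02e-05). Ppard, the broadly expressed PPAR, changed by 0.22 ± 0.065 at day 3 (adjusted p = 0.0127, lost with the rescaled TPM at 0.10), and Pparg by 0.50 ± 0.18 (adjusted p = 0.0289), a call lost without Fzd5KO day 3 replicate 2 (0.28, adjusted p = 0.107), without either of 2 Ctrl day 3 libraries, with no filter, with array weights and with only the libraries compared. Hnf4a, a nuclear receptor of enterocytes, changed by 0.11 ± 0.041 (adjusted p = 0.0342), which turned to −0.043 with quantile normalization and −0.010 with the rescaled TPM and was not called under 10 alternatives in all, among them leaving out any of the Fzd5KO day 3 libraries (adjusted p 0.0546 to 0.0819) or Ctrl day 3 replicate 3 (0.067, adjusted p = 0.127). Creb3l3, a membrane-bound factor that acts with PPARalpha in liver, stood at 384 TPM in Fzd5KO and 178 TPM in Ctrl at day 3 (1.11 ± 0.041, adjusted p = 1.36e-09).

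Of 26 tested genes that PPARs are known to switch on in liver, fat or intestine, 16 were higher and 7 lower at day 3 (median 0.37), and 3 were higher and 6 lower at day 1 (median 0.052). Cidec, a lipid droplet protein, stood at 72.6 TPM in Fzd5KO and 19.7 TPM in Ctrl at day 3 (1.83 ± 0.074, adjusted p = 2.55e-09). Angptl4, a secreted inhibitor of lipoprotein lipase, stood at 17.9 TPM in Fzd5KO and 13.7 TPM in Ctrl at day 3 (0.37 ± 0.11, adjusted p = 0.0124). That call was lost with the rescaled TPM (0.26, adjusted p = 0.0524) and without Ctrl day 3 replicate 1 (adjusted p = 0.0505). Fads2, a desaturase, was lower at −1.09 ± 0.042 (adjusted p = 1.78e-09). Of the 181 genes of the 11 lists, 10 stand in more than 1 list, among them Fabp1, Slc25a20, Ehhadh and Creb3l3.

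**Figure D4:**
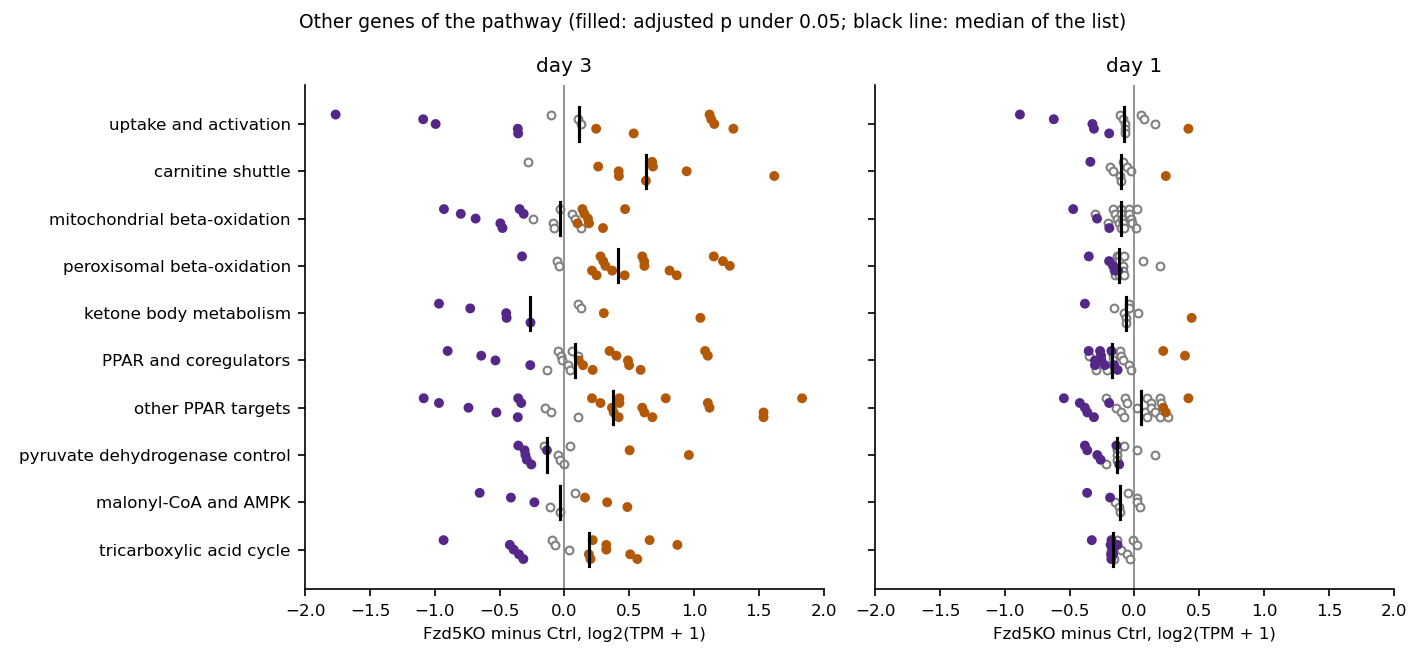
Fzd5KO minus Ctrl on the log2(TPM + 1) scale (x axes) for the tested genes of 10 pathway lists that exclude the 8 genes (y axis), at day 3 on the left and day 1 on the right. Each point is a gene, filled where the adjusted p is under 0.05, and black lines are list medians. At day 3 the carnitine shuttle (median 0.63) and peroxisomal beta-oxidation (0.42) lie to the right, and mitochondrial beta-oxidation (−0.033) spans both sides.

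Cell type markers also differed between the genotypes. Summed enterocyte markers (15 genes) were at 41614 to 43436 TPM in Fzd5KO and 18970 to 20189 TPM in Ctrl at day 3, with 13 genes called higher and 0 lower, and at 24148 to 24951 TPM in Fzd5KO and 22975 to 24068 TPM in Ctrl at day 1, with 2 higher and 8 lower. Stem and crypt markers (8 genes) were at 164 to 173 TPM in Fzd5KO and 811 to 861 TPM in Ctrl at day 3, and at 238 to 242 TPM in Fzd5KO and 560 to 586 TPM in Ctrl at day 1, with all 8 lower on both days. T cell and intraepithelial lymphocyte markers (10 genes, none at 0 in all libraries) were at 163 to 183 TPM in Fzd5KO and 42.0 to 46.1 TPM in Ctrl at day 3, with all 10 genes called higher, and at 110 to 130 TPM in Fzd5KO and 172 to 190 TPM in Ctrl at day 1, with 5 lower. All 7 goblet markers were lower on both days (medians −0.71 at day 3 and −0.78 at day 1), and all 5 Paneth markers were lower at day 3 and 3 at day 1. Erythroid markers were at 54.4 to 69.5 TPM in Fzd5KO and 201 to 228 TPM in Ctrl at day 3, with 5 of 5 tested lower, and at 54.2 to 67.7 TPM in Fzd5KO and 88.4 to 109 TPM in Ctrl at day 1, with 3 lower. Of the B and plasma cell markers 5 of 5 tested were higher at day 3, and of the myeloid markers 6 of 7 tested, each list with sums of at most 28.2 TPM in Fzd5KO. Some day 1 splits depended on scaling. By median-of-ratios scaling 7 enterocyte markers were higher and 8 lower, and 2 Paneth markers were higher and 1 lower. With quantile normalization 2 enterocyte markers were higher and 6 lower, and 1 Paneth marker was lower. By median-of-ratios scaling 6 of the 7 goblet markers were lower on each day. In bulk tissue, a change in the share of a cell type and a change in RNA per cell cannot be told apart. The part of these markers in the changes of the fatty acid oxidation genes was not tested.

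Between the days, the 8 genes changed more evenly in Fzd5KO than in Ctrl. In Fzd5KO all 8 were higher at day 3 than at day 1, with changes of 0.27 (Acadm) to 0.77 (Acadl) and no overlap between the days in any gene. Over all tested genes 34.4% were called higher, 10.5% lower and 44.9% in either direction, and 39.6% had every day 3 library higher and 14.5% every one lower. The median change was 0.48 over the 8 genes, against 0.11 over all tested genes. The all-gene split depended on scaling: 4985 higher and 1525 lower became 3040 and 2855 with quantile normalization. It was 3533 and 2792 with median-of-ratios scaling, and 2442 and 3986 with the rescaled TPM. The Acadm call (0.27 ± 0.090, adjusted p = 0.0302) was lost with median-of-ratios scaling (0.12, adjusted p = 0.347), turned to −0.029 with quantile normalization and −0.000738 with the rescaled TPM, and was lost with no filter (adjusted p = 0.0749) and without Fzd5KO day 1 replicate 3, Fzd5KO day 3 replicate 1 or Fzd5KO day 3 replicate 3 (adjusted p 0.0780 to 0.120). The Ppara call was lost with the rescaled TPM (0.16, adjusted p = 0.0800).

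In Ctrl, 4 of the 8 genes were higher at day 3 than at day 1, 1 was lower and 3 were not called, against 25% of tested genes called higher, 11% lower and 36.1% in either direction. Every day 3 library was higher in the same 4 genes and lower in the same 1, against 33% and 13.7% of tested genes. The median change was 0.16 over the 8 genes and 0.11 over all tested genes. Here too the all-gene split depended on scaling: 3633 higher and 1603 lower became 2226 and 2295 with quantile normalization. It was 1774 and 2552 with median-of-ratios scaling, and 3051 and 1805 with the rescaled TPM. Pdk4 had the largest change of the 8, 1.14 ± 0.090 (adjusted p = 3.65e-06), or 2.58 times its day 1 mean. Ppara changed by 0.67 ± 0.070 (adjusted p = 3.17e-05), Cpt1a by 0.44 ± 0.048 (adjusted p = 4.93e-05) and Acadvl by 0.22 ± 0.047 (adjusted p = 0.00396, lost with median-of-ratios scaling at 0.095). Acadl was the gene that was lower at day 3, at −0.42 ± 0.063 (adjusted p = 0.000401), while in Fzd5KO it was higher by 0.77 ± 0.063. Hadha, with 0.10 ± 0.048 (adjusted p = 0.115), was called without Ctrl day 3 replicate 3 (0.16, adjusted p = 0.0121) and with quantile normalization (0.11, adjusted p = 0.0232), and turned to −0.026 with median-of-ratios scaling. Cpt2 and Acadm were at −0.0021 and −0.014, neither called.

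Across the 12 libraries the 28 pairs of the genes differed in how far their levels ran together. The Pearson correlation of log2(TPM + 1) was 0.953 between Ppara and Pdk4, 0.907 between Acadvl and Hadha, 0.866 between Cpt2 and Hadha, 0.862 between Cpt1a and Acadvl, 0.849 between Ppara and Cpt1a and 0.841 between Cpt2 and Acadl. The lowest were −0.039 between Acadm and Acadl, −0.0086 between Acadl and Pdk4 and 0.0568 between Ppara and Acadl. These 12 points fall into 4 groups of 3 and are a description only. Among 8921 genes with a mean of at least 5 TPM, the patterns most like Acadl were those of Anxa13 (0.992), Enpp3 (0.991) and Selenop (0.987), and those most like Pdk4 were Cebpa (0.993), Elf3 (0.990) and Ly6e (0.979). Most like Ppara were Baiap2l1 (0.973), Sema6d (0.970) and Tfcp2l1 (0.969), most like Cpt1a Tep1 (0.986), most like Cpt2 Phospho1 (0.982), most like Acadvl Nfe2l2 (0.989) and most like Hadha Ctsl (0.991). For Acadm the highest was 0.904, with Trim26.

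Acadl lies on the same chromosome as Fzd5, at chr1:66830839-66863277 on the minus strand (GRCm38, the assembly of mm10), 2.09 Mb from the end of Fzd5. Of the 22 tested genes within 3 Mb of either side of Acadl, Acadl included, 5 were called higher in Fzd5KO on both days, against 203 of 14510 tested genes (1.4%). These were Acadl, Mettl21a, 2810408I11Rik, Rpe and the unclassified transcript Gm38218. Another 5 of the 22 (Creb1, Ccnyl1, Fzd5, Gm15793 and Cps1) were called lower on both days, against 1712 of 14510 tested genes (11.8%). The window and its genes were chosen after their values were seen. Except for Acadl, calls of these genes under the other scalings are not given. The day 1 changes of Creb1 (−0.23) and Cps1 (−0.21) lie near the all-gene median of −0.14. Mettl21a, near Fzd5, stood at 42.9 TPM in Fzd5KO and 2.64 TPM in Ctrl at day 3, and at 29.9 TPM in Fzd5KO and 2.32 TPM in Ctrl at day 1. The noncoding 2810408I11Rik stood at 126 TPM in Fzd5KO and 3.11 TPM in Ctrl at day 3, and at 96.2 TPM in Fzd5KO and 4.26 TPM in Ctrl at day 1. Rpe, ribulose-5-phosphate epimerase, between Fzd5 and Acadl, stood at 44.2 TPM in Fzd5KO and 27.4 TPM in Ctrl at day 3, and at 38.0 TPM in Fzd5KO and 28.1 TPM in Ctrl at day 1. On the other side of Acadl, Lancl1 changed by −0.37 (adjusted p = 0.0241) at day 3 and 0.18 (adjusted p = 0.322) at day 1, and Cps1 by −0.93 (adjusted p = 5.13e-09) and −0.21 (adjusted p = 0.00508).

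Within an intron of Acadl, on the same strand, lies the processed pseudogene Gm15793 (chr1:66849108-66849602), which shares no exon base with Acadl. It was at 0, 0.04 and 0 TPM in Fzd5KO at day 3, against 2.69, 1.75 and 2.68 TPM in Ctrl. At day 1 it was at 0, 0 and 0 TPM in Fzd5KO, against 3.50, 3.73 and 3.41 TPM in Ctrl. The 6 Fzd5KO libraries were at or near 0 and all 6 Ctrl libraries above 1 TPM. The loss of Fzd5 and any difference in the stretch of chromosome 1 that holds both genes cannot be told apart in this design. The other 7 genes lie on chromosomes 15 (Ppara), 19 (Cpt1a), 4 (Cpt2), 3 (Acadm), 11 (Acadvl), 5 (Hadha) and 6 (Pdk4).

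**Figure D5:**
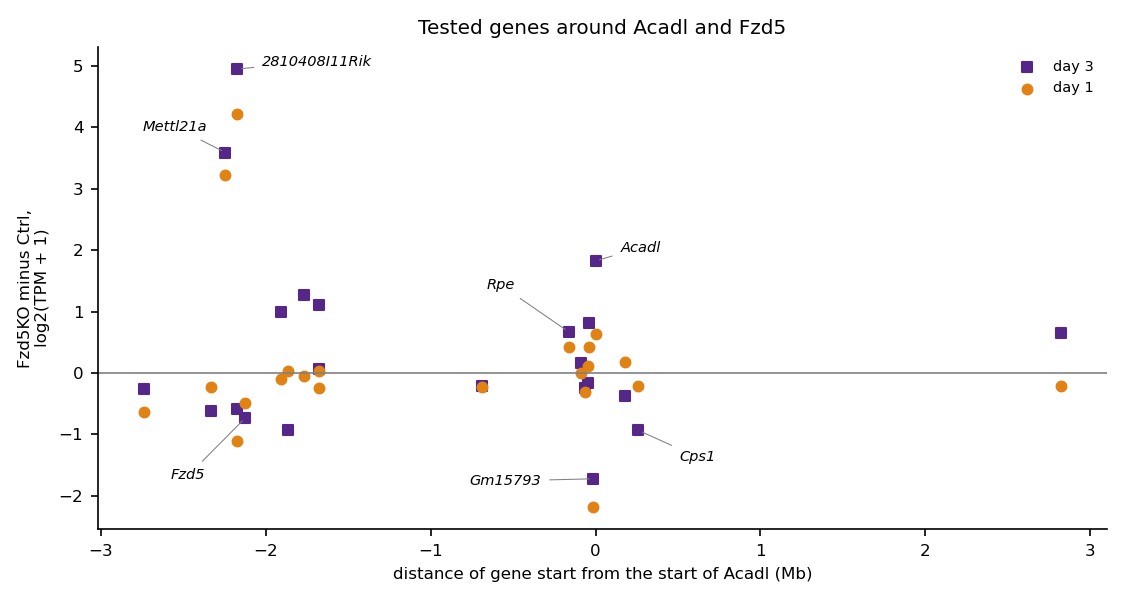
Fzd5KO minus Ctrl on the log2(TPM + 1) scale (y axis) of the 22 tested genes within 3 Mb of Acadl, by the distance of each gene's start from the start of Acadl (x axis, Mb). Squares are day 3 and circles day 1. Mettl21a and 2810408I11Rik, near Fzd5, are above 3 on both days, and Gm15793, inside Acadl, is under −1 on both days.

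PPARalpha with its partner binds 2 copies of a hexamer in the same direction with 1 base between them, so the 250 bases before each RefSeq start (GRCm38.p6) were searched on both strands for the hexamer AGGTCA (reverse TGACCT) and for that repeat, AGGTCANAGGTCA, which contains the hexamer. The hexamer was found in 3 of the 8 windows, against 14% of 32851 promoters, and the repeat in 0 of 8, against 0.0335%. The 60 bases around each match are shown for the 3 genes that hold one, with the hexamer in capitals, followed by the whole windows of Acadl, the gene with the largest change, and Pdk4, which changed in opposite directions. In these last 2 the letters were not found, and nothing follows from that about the receptor. The Cpt1a stretch is chr19:3323180-3323239 on the plus strand, with its match 94 bases before the start. The Acadm stretch is chr3:153944834-153944893 (minus strand, 249 bases before the start), the Acadvl stretch chr11:70015483-70015542 (minus strand, 87 bases before the start), the Acadl window chr1:66863310-66863559 (minus strand) and the Pdk4 window chr6:5496279-5496528 (minus strand). Of the 3 genes with a match, Acadvl was higher at day 3, Cpt1a was lower at day 1 and Acadm was not called on either day. Of the 5 without one, Acadl, Cpt2 and Hadha were higher and Pdk4 lower at day 3. At day 1, Acadl and Pdk4 were higher and Hadha lower, and Ppara was not called on either day. The day 1 calls of Cpt1a and Hadha and the day 3 calls of Acadvl and Pdk4 were lost with quantile normalization.
Cpt1a promoter: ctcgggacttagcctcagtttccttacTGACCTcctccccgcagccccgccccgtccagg
Acadm promoter: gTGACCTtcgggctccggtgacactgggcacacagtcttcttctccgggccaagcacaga
Acadvl promoter: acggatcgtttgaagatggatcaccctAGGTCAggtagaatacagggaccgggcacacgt
Acadl promoter: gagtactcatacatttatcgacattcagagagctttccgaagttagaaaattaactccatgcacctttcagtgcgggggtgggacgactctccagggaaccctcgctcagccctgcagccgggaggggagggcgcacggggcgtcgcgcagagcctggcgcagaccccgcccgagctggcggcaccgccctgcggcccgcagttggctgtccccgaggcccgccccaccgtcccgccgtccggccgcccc
Pdk4 promoter: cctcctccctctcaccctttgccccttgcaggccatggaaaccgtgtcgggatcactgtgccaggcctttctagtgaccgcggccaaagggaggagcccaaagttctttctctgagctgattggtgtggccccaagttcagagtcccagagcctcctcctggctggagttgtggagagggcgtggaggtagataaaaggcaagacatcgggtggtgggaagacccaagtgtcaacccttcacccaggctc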

How the data were processed

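The authors deposited 1 table of TPM values for 12 libraries (4 groups of 3), with 0 columns of other samples. Per the labels' protocols, total RNA from an RNeasy column went into TruSeq stranded libraries. Listed without role or order in the submitters' processing notes are bcl2fastq 2.18, STAR 2.7.3a, RSEM and mm10. No source used here gives the annotation or the strand setting. Identifiers matched GENCODE mouse release 21 (GRCm38) for 55240 of 55421 genes.

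TPM divides by transcript length and a library total, so a few abundant RNAs can shift all others and depth is lost. The 14510 genes that reached 1 TPM in 3 or more libraries entered limma 3.58.1 (R 4.3.3) on the log2(TPM + 1) scale, with a trend on intensity, 4 group means, 8 residual degrees of freedom and Benjamini-Hochberg adjustment over all tested genes of a contrast. The fit gave Fzd5KO minus Ctrl on each day and over both, the difference between the days, and day 3 minus day 1 in each genotype. The procedure was tested on simulated data with independent normal noise, in which a small set of genes was changed at day 3 only. That setting had no shift of scaling and far fewer changed genes than are called here. It therefore cannot show how calls depend on scaling. Named genes outside the 8 were up to 4 called genes with the smallest p per list and direction, plus 15 fixed ones, of which 2 are not reported here. Arntl, Acad8, Acadsb, Pccb, Slc16a1, Slc16a7 and the genes of the Acadl window were described after their values were seen. The 8 genes and all lists were chosen with earlier results of these data known. Promoters come from RefSeq (GRCm38.p6), and all 8 genes matched. Alternatives were other pseudocounts (0.1 and 5), filters, scalings, no trend, array weights, a replicate block, only the libraries compared, and each library left out. Plots used matplotlib 3.10.9 (Python 3.11.15).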

Additional observations from a re-analysis of the deposited data

Results flagged for a closer look

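For these genes the difference between Fzd5KO and Ctrl was itself different at day 3 and day 1, by limma's test of that difference with adjusted p under 0.05. Values are the day 3 effect minus the day 1 effect on the log2(TPM + 1) scale. Among the 8 fatty acid oxidation genes they were 1.19 for Acadl, 0.55 for Hadha, 0.45 for Cpt2, 0.30 for Cpt1a, 0.27 for Acadvl and −0.67 for Pdk4. Among other genes of the pathway they were 1.18 for Pdk2, 0.80 for Ehhadh, 0.59 for Angptl4 and 0.40 for Hadhb. The Hadhb value was not called with quantile normalization (0.095, adjusted p = 0.397) or with the rescaled TPM (0.18, adjusted p = 0.0768). The Acadvl value turned to −0.0496 with quantile normalization and was not called with the rescaled TPM (0.044, adjusted p = 0.581), and the Cpt1a value was not called with either (0.059 and 0.075).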

How the results depend on the processing

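For the 8 genes, 48 effects (6 contrasts) were recomputed under 1088 alternatives in all: 996 kept direction and call, 35 lost the call, 27 gained one and 30 turned direction. Many alternatives leave the change itself as it was, so that only the call could move. These are the filters, no trend, the replicate block, only the libraries compared, and leaving out a library of a group not compared. The count of 996 therefore overstates how far the effects were put to a test. The number called moved over 1.5 times in 1 case, at day 3, where quantile normalization called 3 in place of 5. With 1 library left out it was 4 to 5 at day 3, 3 to 4 at day 1, 4 to 5 for the mean of both days, 6 to 7 for the difference between days, 7 to 8 in Fzd5KO over time and 5 to 6 in Ctrl over time. Of the 2992 alternative counts of pathway list genes called in 1 direction, 297 moved over 1.5 times, 106 of them where at least 4 genes were called. Direction turned in uncalled effects and in some called ones. The called ones were the day difference of Acadvl (0.27), Acadm in Fzd5KO over time (0.27), Hadha at day 1 (−0.14) and Hnf4a at day 3 (0.11). The effects that turned, called or not, are given by contrast. At day 3 these were Ppara (0.025 with median-of-ratios scaling), Cpt1a (−0.055 with quantile normalization, −0.046 rescaled), Acadm (−0.10 quantile, −0.083 rescaled, −0.014 to 0.11 with a library left out), Hnf4a (−0.043 quantile, −0.010 rescaled), Pdk1 (0.043 quantile, 0.10 median-of-ratios, −0.13 to 0.038 left out) and Pdk3 (0.13 in both, −0.090 to 0.053 left out). At day 1 they were Acadvl (0.10 quantile, 0.14 median-of-ratios, 0.083 rescaled, −0.081 to 0.012 left out) and Hadha (0.020 median-of-ratios). For the mean of both days they were Ppara (−0.00186 with array weights, −0.016 to 0.041 left out), Cpt1a (0.075) and Acadm (0.049) with median-of-ratios scaling, and Pdk4 (−0.000366 to 0.069 left out). The others were the day difference of Acadvl (−0.0496 quantile), Acadm in Fzd5KO over time (−0.029 quantile, −0.000738 rescaled), and in Ctrl over time Cpt2 (0.00714 with array weights, −0.082 to 0.058 left out), Acadm (−0.088 to 0.051 left out) and Hadha (−0.026 median-of-ratios). Beyond the scalings' own shift of the all-gene median, the cause was not tested.

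Replicate numbers gave no sign of pairing, judged by the deviations of log2(TPM + 1) from the group means. These deviations had correlations of −0.069 to 0.093 between same-numbered libraries of different groups (18 pairs, 0 over 0.1). Between differently numbered libraries of different groups the range was −0.092 to 0.071. With a replicate block 5 genes were called at day 3, 5 at day 1 (Acadm added, adjusted p = 0.0275), 4 for the mean of both days, 7 for the difference between days, 8 in Fzd5KO over time and 5 in Ctrl over time. Depth is unknown for TPM, so the limit it sets on low genes such as Pdk4 cannot be given.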
